A study of Mus musculus with 4 samples.

Results

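The 8 genes described here encode the SCF-FBXW7 ubiquitin ligase and the proteins around it: the substrate receptor Fbxw7, the core subunits Skp1a, Cul1 and Rbx1, the competing receptor Skp2, the deubiquitinase Usp28, and the substrates Klf5 and Mcl1. They were chosen by symbol, and all 8 were found among 51826 gene rows, of which 21607 entered the test. All 8 passed the filter on low counts. RNA had been sequenced from 4 mouse mammary tumours labelled C3-T+, 2 of genotype Elf5+/+ (wild type, WT) and 2 of genotype Elf5+/- (HET, with 1 intact copy of Elf5). All 4 tumours carry C3-T, whose promoter is not given in the sources used here, nor are the ages of the mice. Tumours were digested with collagenase and hyaluronidase and sorted with antibodies to CD45, CD31 and TER119 to enrich tumour cells. The titles of both HET libraries begin with the same number and end in T1 and T2, so they may be 2 tumours of 1 animal. The labels do not say so. Any p-value given here reflects the spread between these 4 libraries alone, which may be partly technical.

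An SCF ligase is a modular enzyme. Cullin 1 is its scaffold, RBX1 is the RING subunit that recruits the ubiquitin-loaded enzyme, SKP1 is the adaptor, and an interchangeable F-box protein chooses the substrate. FBXW7 reads phosphorylated degrons and sends cyclin E, c-Jun, Notch receptors, KLF5 and MCL1 to the proteasome, which is why it is known as a tumour suppressor. ELF5 is an ETS transcription factor of luminal progenitors, and the study places FBXW7 between ELF5 and the interferon gamma receptor IFNGR1. Degradation acts on proteins. The RNA values below give the supply of each transcript and say nothing of protein stability.

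The targeted gene did not separate the genotypes. Elf5 stood at 35.6 CPM (TMM-normalised counts, set to one library size) for WT 1, 4.70 for the library labelled WT 2, 5.39 for HET 1 and 10.6 for HET 2. Values listed together keep this order of libraries. The library labelled WT 2 thus lay below both HET libraries, and every direction of HET over WT rests on that label. It also stood apart in other ways. Of all gene rows, 44.5% were at 0 counts there, against 29.9% to 31.3% in the other libraries. Its total count was nonetheless the largest. Its cell markers differed as well. The sum of 7 fibroblast markers was 21553 CPM there against 3829 to 6433 in the other libraries, and the sum of 7 leukocyte markers was 23.4 there against 281 to 328. In bulk RNA, fewer cells of a type and less RNA per cell cannot be told apart. The defining epithelial markers were present in all 4 libraries. Their sum (Epcam, Krt8, Krt18, Krt19, Cdh1, Cldn3 and Cldn4) was 3231 CPM for WT 1, 3005 for the library labelled WT 2, 2189 for HET 1 and 2190 for HET 2.

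Since ELF5 is a DNA-binding protein, the sequences before the RefSeq start sites of Fbxw7 are shown first. RefSeq (GRCm38.p6) places its transcripts at 3 start sites on the plus strand of chromosome 3, and the deposited counts merge them. Each line gives the 250 bases before a start site, with the ETS core GGAA, or TTCC for the other strand, in capitals. The windows are chr3:84815327-84815576, chr3:84863895-84864144 and chr3:84951961-84952210. All 3 lie within the gene as annotated for the counts, which begins at 84815268, and no bases before that position were searched.
Fbxw7 start site 1: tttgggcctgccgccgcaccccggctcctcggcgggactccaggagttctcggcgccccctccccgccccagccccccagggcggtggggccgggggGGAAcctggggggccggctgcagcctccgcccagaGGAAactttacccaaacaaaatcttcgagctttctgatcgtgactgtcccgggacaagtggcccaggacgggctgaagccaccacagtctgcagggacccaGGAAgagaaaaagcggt
Fbxw7 start site 2: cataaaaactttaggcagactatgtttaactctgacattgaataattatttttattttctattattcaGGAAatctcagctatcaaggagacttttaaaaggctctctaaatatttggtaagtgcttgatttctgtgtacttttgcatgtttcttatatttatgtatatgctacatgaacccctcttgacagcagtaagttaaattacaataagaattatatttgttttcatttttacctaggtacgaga
Fbxw7 start site 3: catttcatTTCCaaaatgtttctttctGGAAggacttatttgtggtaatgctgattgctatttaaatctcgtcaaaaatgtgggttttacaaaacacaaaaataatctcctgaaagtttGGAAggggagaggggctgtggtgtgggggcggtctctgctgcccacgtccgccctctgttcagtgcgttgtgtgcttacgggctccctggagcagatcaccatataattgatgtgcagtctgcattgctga

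The first window, with 68.0% G and C, held 3 cores, the second held 1 and the third held 3. GGAA on either strand was found in 93.4% of 32851 RefSeq windows of this length, with a median of 3 matches, so the Fbxw7 windows did not stand out. The longer motif AGGAAG, searched on both strands, occurred once, in the first window, and in 29.5% of all windows. The motif CGGAAG, also on both strands, was in none of the 3 Fbxw7 windows and in 13.6% of all windows. Both longer motifs contain GGAA. Among the other members, Mcl1 had the window with the most cores, 8 of them, 2 within CGGAAG. The share of all windows with as many was not counted. The Mcl1 window lies at chr3:95658471-95658720.
Mcl1 start site: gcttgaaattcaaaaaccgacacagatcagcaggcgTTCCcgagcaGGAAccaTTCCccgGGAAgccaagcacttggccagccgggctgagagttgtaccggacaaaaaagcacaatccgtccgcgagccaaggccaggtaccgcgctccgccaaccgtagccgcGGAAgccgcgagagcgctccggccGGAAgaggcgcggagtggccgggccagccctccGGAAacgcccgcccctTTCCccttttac

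Windows were matched for 7 of the 8 genes, Skp1a under its RefSeq symbol Skp1. Klf5 was not matched. A match describes letters only, and binding was not measured here.

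Fbxw7 (chromosome 3, 84815268 to 84979198, GRCm38, plus strand), the receptor that gives the ligase its specificity, stood at 78.8 CPM for WT 1, 63.7 for the library labelled WT 2, 59.3 for HET 1 and 48.3 for HET 2. Both HET libraries lay below both WT libraries, by a narrow margin between the library labelled WT 2 and HET 1. Separation in this direction was seen for 15.9% of all genes tested. Other gene models overlap Fbxw7, Gm37240 on the other strand with 41 to 163 counts a library and Gm37726 on the same strand with 10 to 53, against 651 to 991 for Fbxw7. The log2 fold change was -0.41 ± 0.30 (SE, n = 2 libraries per genotype), with a 95% interval from -1.13 to 0.32, and Fbxw7 missed the threshold of edgeR's quasi-likelihood test (unadjusted p = 0.219, adjusted p = 0.986). None of the 8 members passed it, against 0% of all 21607 genes. At an unadjusted p under 0.05 edgeR gave 0 members and 817 genes (3.78%). DESeq2 called 134 genes and limma-voom 0, with 0 members in either.

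The separation of Fbxw7 depended on the scaling. Scaled by total counts alone, Fbxw7 stood at 75.3 CPM for WT 1, 58.5 for the library labelled WT 2, 62.7 for HET 1 and 51.3 for HET 2. On that scale HET 1 lay above the library labelled WT 2, and the genotypes overlapped. The sum of the 7 epithelial markers was also lower in both HET libraries, but its genes did not move alike. By log2 fold change 6 were below 0 and 1 above. Epcam was lower in both HET libraries, at 768.6 and 613.4 CPM against 1040.2 and 1287.6 in WT. Krt19 was higher in both (53.9 and 80.2 against 47.5 and 44.3), and Cdh1 was lowest in WT 1 (314.0). Their part in the Fbxw7 values was not tested. Per 1000 CPM of summed epithelial markers, a comparison chosen after the data were seen, Fbxw7 was at 24.4 for WT 1, 21.2 for the library labelled WT 2, 27.1 for HET 1 and 22.1 for HET 2, so the genotypes overlapped and the mean log2 difference turned to 0.10.

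Fbxw7 and Elf5 did not follow the same order over libraries. Elf5 was lowest in the library labelled WT 2, where Fbxw7 was second highest. HET 2 had the second highest level of Elf5 and the lowest of Fbxw7. Ifngr1, the ligand-binding chain of the interferon gamma receptor, was at 82.0 CPM for WT 1, 65.4 for the library labelled WT 2, 81.1 for HET 1 and 57.7 for HET 2. It was low in the library labelled WT 2 and in HET 2 and high in the other 2 libraries, without separating the genotypes.

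**Figure D1:**
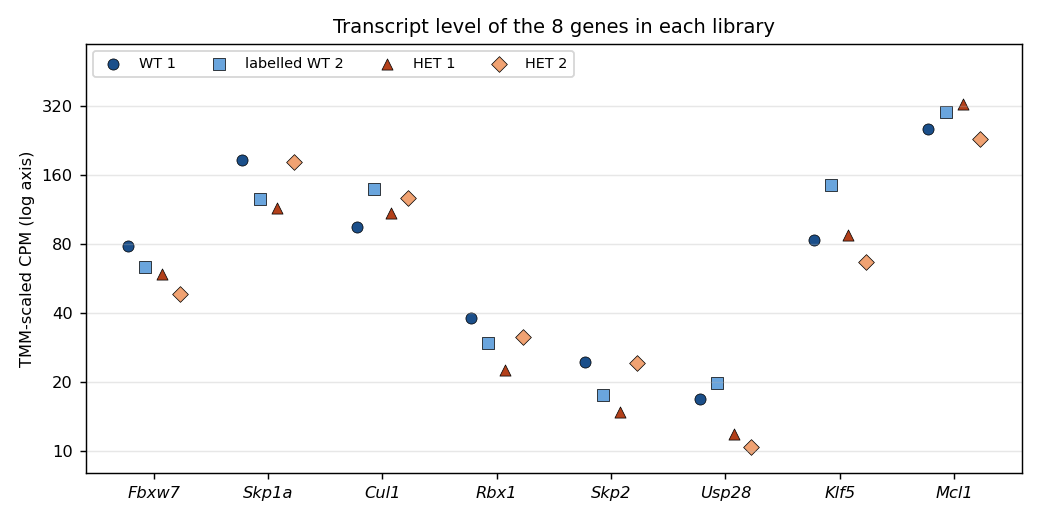
TMM-scaled CPM on a log axis for the 8 genes, with 1 point per library (circle WT 1, square labelled WT 2, triangle HET 1, diamond HET 2). Fbxw7 and Usp28 are the members whose HET points both lie below both WT points, while Skp1a, Rbx1 and Skp2 are highest in WT 1 and HET 2.

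Usp28 (chromosome 9, 48985375 to 49042517, plus strand) encodes a deubiquitinase that binds FBXW7 and removes ubiquitin from its substrates. It was the other member with both HET libraries below both WT libraries. Its levels were 16.9 CPM for WT 1, 19.8 for the library labelled WT 2, 11.9 for HET 1 and 10.4 for HET 2. The log2 fold change of -0.72 ± 0.36 (SE, n = 2 per genotype; 95% interval -1.60 to 0.16) was the furthest from 0 of the 8 members, and it did not pass edgeR's test (adjusted p = 0.986, unadjusted p = 0.0937). Scaled by total counts alone the groups still did not overlap, at 16.1 and 18.2 CPM for the WT libraries and 12.5 and 11.0 in HET. Per 1000 CPM of epithelial markers they did overlap, at 5.22, 6.59, 5.43 and 4.74 in the same order. Non-overlap in either direction held for 2 of 8 members and for 35.5% of all genes tested.

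Usp25 is the closest relative of Usp28. Its levels of 100.2 CPM for WT 1 and 165.8 for the library labelled WT 2 spanned those of 125.2 and 137.7 in HET. Usp28 took a smaller part of the pair in both HET libraries. It made up 14.4% of the estimated counts of both genes for WT 1 (95% exact binomial interval 12.6% to 16.3%), 10.7% for the library labelled WT 2 (9.51% to 11.9%), 8.66% for HET 1 (7.50% to 9.95%) and 7.02% for HET 2 (5.94% to 8.23%). The intervals of the library labelled WT 2 and HET 1 overlapped. These intervals cover counting error only, and no scaling enters such a share.

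The scaffold and adaptor transcripts showed no shift between genotypes of the size of the spread between libraries. Cul1 (chromosome 6, 47453398 to 47526139, plus strand) was at 95.5 CPM for WT 1, 139.3 for the library labelled WT 2, 109.8 for HET 1 and 127.6 for HET 2. Both HET values lay between the WT values, and the log2 fold change was 0.02 ± 0.32 (SE, n = 2 per genotype; 95% interval -0.76 to 0.79). Among the 8 cullin genes, Cul1 held 16.5% of estimated counts for WT 1, 24.9% for the library labelled WT 2, 19.5% for HET 1 and 20.9% for HET 2. The pseudogene A930035D04Rik overlaps Cul1 on the other strand, with 0 to 8 counts a library against 1201 to 1956 for Cul1.

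Skp1a (chromosome 11, 52231995 to 52246858, plus strand), the adaptor that links every F-box protein to cullin 1, stood at 186.1 CPM for WT 1, 126.1 for the library labelled WT 2, 115.7 for HET 1 and 182.8 for HET 2. It was high in WT 1 and HET 2 and low in the other pair, with a log2 fold change of -0.06 ± 0.37 (SE, n = 2 per genotype). Rbx1 (chromosome 15, 81466296 to 81476369, plus strand), the RING subunit, followed the same order at 37.9, 29.5, 22.5 and 31.4 CPM in the same order of libraries, with a log2 fold change of -0.32 ± 0.33 (SE). The processed pseudogene Rbx1-ps had 22, 42, 14 and 0 counts in the same libraries against 476, 414, 346 and 423 for Rbx1, and how reads were divided between them is uncertain. Of both RING partners of cullins, Rbx1 took 68.8%, 55.7%, 61.3% and 62.2% of estimated counts, the rest being Rnf7, the partner of cullin 5. Skp1a is overlapped by Gm12207 on the same strand (20 to 54 counts a library) and by Gm26551 on the other (3 to 51). Skp1a itself had 1770 to 2464.

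Skp2 (chromosome 15, 9111985 to 9155425, minus strand) encodes the F-box receptor that sends the inhibitor p27 to degradation in S phase, and it competes with FBXW7 for the same core. It again was highest in WT 1 and HET 2. Its levels were 24.4 CPM for WT 1, 17.5 for the library labelled WT 2, 14.8 for HET 1 and 24.2 for HET 2, and the log2 fold change was -0.11 ± 0.40 (SE, n = 2 per genotype; 95% interval -1.08 to 0.87). Skp2 overlaps Lmbrd2 on the other strand, which had 514, 425, 396 and 408 counts against 307, 246, 228 and 326 for Skp2 in the same order. With strandedness not given, the Skp2 counts carry that uncertainty. In proportion to Fbxw7 in the same library, Skp2 counts were 0.310 for WT 1, 0.275 for the library labelled WT 2, 0.249 for HET 1 and 0.501 for HET 2. HET 2 thus had the highest ratio of Skp2 to Fbxw7 and HET 1 the lowest.

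The division of Skp1a, Rbx1 and Skp2 ran within genotypes and not between them. The 10 genes of the COP9 signalosome, which removes NEDD8 from cullins and so resets SCF ligases, had a median deviation from their own mean of 0.18 log2 units for WT 1, -0.11 for the library labelled WT 2, -0.36 for HET 1 and 0.22 for HET 2. Protein-coding genes of up to 3328 bases of merged exons had medians of 0.09, -0.04, -0.08 and 0.12 in the same order, those of 3329 to 5796 bases 0.06, -0.01, -0.0085 and 0.04, and longer genes 0.0018, 0.05, 0.04 and -0.03. Skp1a (2211 bases) falls in the short class, Rbx1 (4551 bases) in the middle one and Skp2 (7875 bases) in the long one. Mitochondrial ribosomal RNA took 9.74%, 7.26%, 7.56% and 9.90% of counts. The part of exon length or of mitochondrial ribosomal RNA in the order of Skp1a, Rbx1 and Skp2 was not tested.

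**Figure D2:**
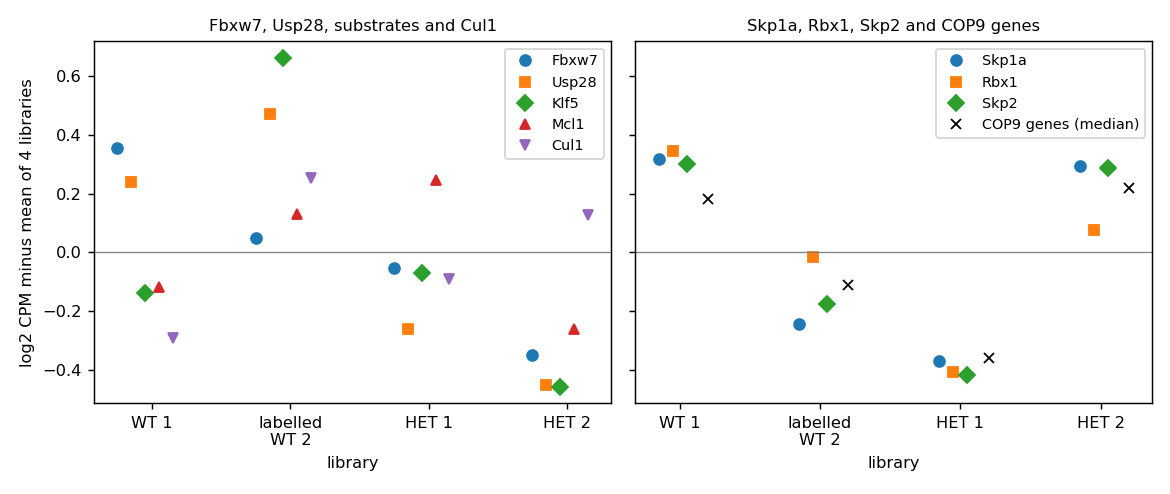
Log2 CPM of each gene minus its mean over the 4 libraries, with 1 marker per gene and library, and crosses for the median of the 10 COP9 genes. On the right, Skp1a, Rbx1 and Skp2 lie above 0 in WT 1 and HET 2 and below 0 in the library labelled WT 2 and HET 1. On the left, Usp28 and Fbxw7 lie above 0 in both WT libraries.

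Klf5 (chromosome 14, 99298691 to 99315036, plus strand) encodes a basal and progenitor Krüppel-like factor that promotes proliferation of mammary tumour cells. It was high in a single library. It stood at 83.6 CPM for WT 1, 145.4 for the library labelled WT 2, 87.6 for HET 1 and 66.9 for HET 2, so WT 1 lay between the HET libraries. The log2 fold change of -0.57 ± 0.37 (SE, n = 2 per genotype; 95% interval -1.47 to 0.34) did not pass edgeR's test (adjusted p = 0.986), and it shrank to -0.11 without the library labelled WT 2. Other members of the family were also highest there. Klf4 stood at 270.1, 696.7, 488.1 and 195.5 CPM and Klf6 at 380.8, 925.6, 569.8 and 432.4 CPM in the same order of libraries. These relatives were named after their values were seen. As a share of 17 Krüppel-like factor genes, Klf5 held 6.64%, 6.22%, 5.23% and 6.09% of estimated counts in the same order, with both HET libraries below both WT libraries. The margin was narrow for HET 2. Its 95% exact binomial interval (5.71% to 6.49%) overlapped those of WT 1 (6.25% to 7.04%) and of the library labelled WT 2 (5.96% to 6.48%). The library labelled WT 2 is also the one with the high fibroblast sum. The sum of 6 basal markers was 842 CPM for WT 1, 1254 for the library labelled WT 2, 896 for HET 1 and 400 for HET 2. That sum ran in the order of Klf5, though Krt14 (466.9 CPM) and Acta2 (195.9 CPM) among its genes were highest in WT 1. The part of fibroblasts or of basal cells in the Klf5 levels was not tested.

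Mcl1 (chromosome 3, 95658788 to 95663176, plus strand), an unstable prosurvival member of the BCL2 family, did not separate the genotypes. It was at 255.2 CPM for WT 1, 303.3 for the library labelled WT 2, 328.5 for HET 1 and 231.3 for HET 2. Both WT values lay between the HET values. The log2 fold change was 0.00 ± 0.33 (SE, n = 2 per genotype), and its 95% interval of -0.79 to 0.80 leaves room for a change of either sign. Together with Bcl2, Bcl2l1, Bcl2l2 and the Bcl2a1 genes, the prosurvival part of the family, Mcl1 held 70.9% of estimated counts for WT 1, 77.6% for the library labelled WT 2, 71.7% for HET 1 and 72.5% for HET 2. The Bcl2a1 copies are near-identical, so only their sum was used in that share.

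**Figure D3:**
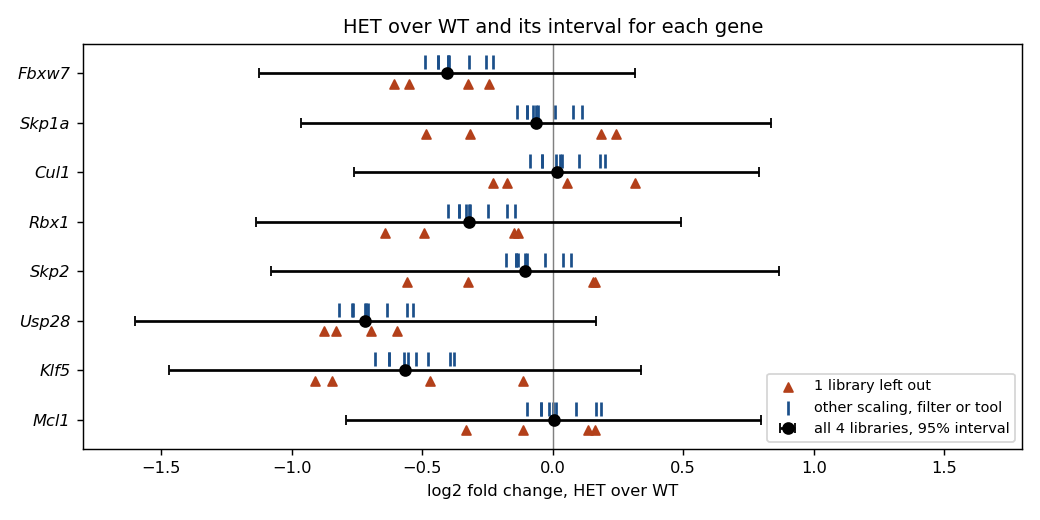
Log2 fold change of HET over WT for each gene from all 4 libraries with its 95% interval (black), from other scalings, filters or tools (blue ticks) and with 1 library left out (red triangles). All 8 intervals include 0. Fbxw7, Rbx1, Usp28 and Klf5 keep a value below 0 under every setting drawn.

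Compared per kilobase of merged exons, the members spanned a wide range of levels. Mcl1 was highest at 81.8 ± 13.0 CPM per kilobase (SD over 4 libraries), followed by Skp1a at 69.1 ± 16.7, Cul1 at 29.2 ± 4.78 and Klf5 at 18.4 ± 6.57. Fbxw7 at 8.88 ± 1.79, Rbx1 at 6.66 ± 1.39, Skp2 at 2.57 ± 0.61 and Usp28 at 2.53 ± 0.75 formed the lower end. The ranges over libraries overlapped between Mcl1 and Skp1a, between Cul1 and Klf5, between Fbxw7 and Rbx1, and between Skp2 and Usp28. The other neighbours in this order did not overlap. Transcripts of the receptor were thus fewer per length than those of the adaptor and scaffold. Per kilobase of the longest transcript Rbx1 was at 11.4 and Cul1 at 37.4, with Cul1 again the higher. The order of the members changed by that length. Skp1a at 87.0 then lay above Mcl1 at 81.8, and Usp28 at 3.56 above Skp2 at 3.27.

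A further scale-free measure sets Fbxw7 among the 10 F-box genes of the FBXW class. Its share of their estimated counts was 26.6% for WT 1 (95% exact binomial interval 25.1% to 28.0%), 22.2% for the library labelled WT 2 (21.0% to 23.6%), 22.9% for HET 1 (21.6% to 24.3%) and 18.5% for HET 2 (17.2% to 19.8%). HET 1 lay above the library labelled WT 2 and their intervals overlapped, so the genotypes overlapped. WT 1 was highest and HET 2 lowest.

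**Figure D4:**
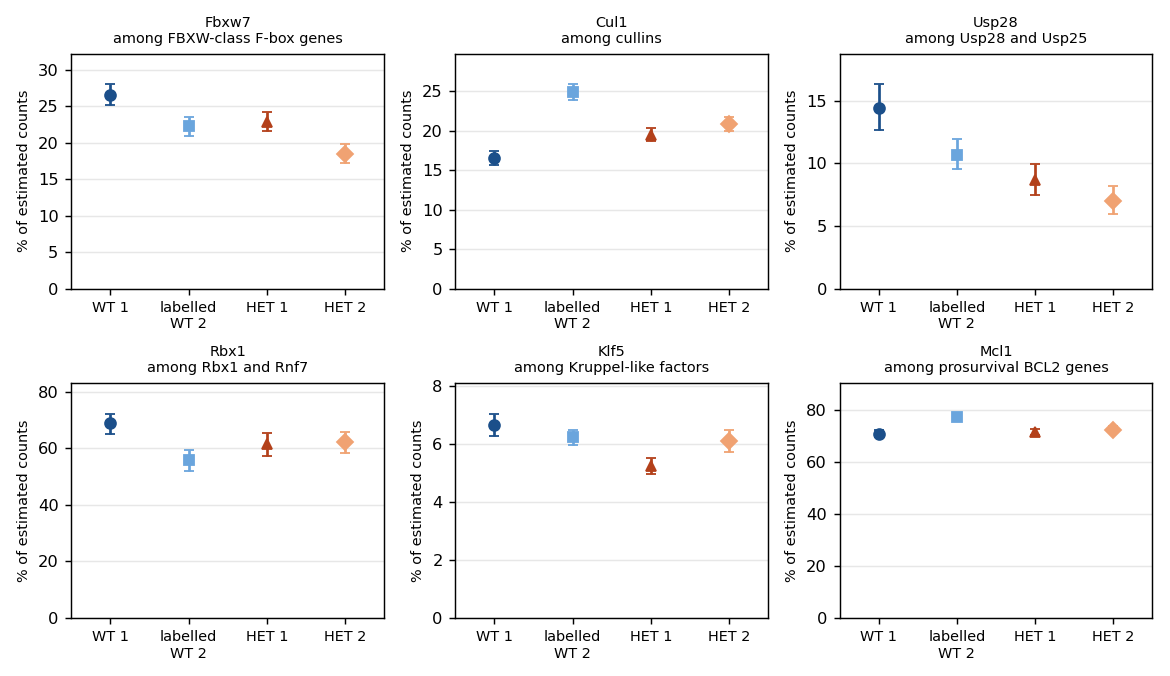
Share of estimated counts, in percent, that each of 6 members takes of its own gene family in each library, with 95% exact binomial intervals for counting error. The Usp28 share is 14.4% and 10.7% in the WT libraries and 8.66% and 7.02% in HET, and Klf5 is also lower in both HET libraries, while the other 4 shares overlap between genotypes.

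The wider pathway was read from 9 lists, beside all genes tested, whose median log2 fold change was 0.04 with 47.3% of genes below 0. Among protein-coding genes 52.9% were below 0 and the median was -0.04. Both HET libraries lay below both WT libraries, called separated downwards here, in 15.9% of all genes and in 18.0% of protein-coding genes. They lay above both WT libraries, called separated upwards, in 19.6% of all genes and in 16.6% of protein-coding genes. In the 8 members the median was -0.21, with 6 of 8 below 0. No list held a gene that passed edgeR's test in either direction. The genes named from each list are those of smallest unadjusted p. Of 16 genes for SCF assembly and neddylation (the attachment of NEDD8 that activates cullins), 12 were below 0 and the median was -0.27. In this list 7 genes separated downwards and 1 upwards. Uba3, the catalytic subunit of the NEDD8-activating enzyme, stood at 51.4 and 70.0 CPM in WT against 41.2 and 42.1 in HET. Cand2, a relative of the exchange factor CAND1, went the other way, at 18.8 and 19.6 in WT against 25.9 and 39.6 in HET. Under total counts the median of this list was -0.09 and that of all genes 0.22, so both moved by a like amount. With 1 library left out the median of the list ran from -0.42 (without HET 2) to -0.15 (without WT 1).

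The COP9 signalosome list had 7 of 10 genes below 0 (median -0.07), with 1 of 10 separated downwards and 0 upwards. Its median turned to 0.11 without WT 1 and likewise without HET 1, and was -0.20 without the library labelled WT 2 and -0.46 without HET 2. Cops5, its catalytic subunit, stood at 65.4, 34.9, 33.9 and 46.5 CPM in the same order of libraries, and Cops3 at 46.2, 50.0, 37.8 and 45.2. Other cullins and Rnf7 had 5 of 8 below 0 (median -0.08), with 2 separated downwards and 2 upwards. Their median turned to 0.15 without WT 1 and was -0.20 without HET 2. Cul7 stood at 41.8 and 60.2 CPM in WT against 27.4 and 40.6 in HET, and Cul4a, the scaffold of the DDB1 ligases, at 130.2 and 94.8 in WT against 156.5 and 157.8 in HET. The other 9 FBXW-class genes had 5 below 0 (median -0.02), with 4 separated downwards and 1 upwards. The median ran from -0.19 without WT 1 or without HET 1 to 0.03 without the library labelled WT 2, and was -0.12 without HET 2. Fbxw8, a cullin 7 partner, stood at 60.2 and 57.9 CPM in WT against 41.5 and 49.1 in HET, and the low Fbxw10 at 1.03 and 0.855 in WT against 0.649 and 0.148 in HET.

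Among 12 tested regulators of FBXW7, 10 were below 0 (median -0.18), with 2 separated downwards and 0 upwards. Hes5 did not pass the filter. The median turned to 0.12 without the library labelled WT 2, and it was -0.05 without HET 1, -0.37 without HET 2 and 0.0021 under total counts. Plk2, a polo-like kinase, stood at 369.7 and 331.0 CPM in WT against 219.7 and 214.6 in HET, without overlap. Ezh2, a histone methyltransferase, stood at 134.5 and 166.7 in WT against 124.9 and 98.2 in HET. Of 29 further genes whose proteins FBXW7 is reported to degrade, 17 were below 0 and 12 above (median -0.17). Of these, 7 separated downwards and 1 upwards. The median was -0.06 without WT 1, -0.04 without the library labelled WT 2 and -0.40 without HET 1, and 0.0083 under total counts. Snai1, a repressor of epithelial genes, stood at 14.6 and 19.6 CPM in WT against 8.50 and 9.87 in HET. Hif1a, the oxygen-regulated subunit of HIF1, stood at 155.7 and 180.5 in WT against 115.0 and 105.8 in HET.

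Partners and substrates of SKP2 had 10 of 12 below 0 (median -0.37), 5 separated downwards and 1 upwards, and 2 with an unadjusted p under 0.05 in edgeR. Cks2, a small CDK-binding protein and relative of the SKP2 cofactor CKS1, stood at 21.8 and 26.2 CPM in WT against 9.22 and 11.9 in HET (log2 fold change -1.19, adjusted p = 0.986). Rbl2, which encodes the pocket protein p130, stood at 22.4 and 28.0 in WT against 42.0 and 46.5 in HET (log2 fold change 0.81, adjusted p = 0.986). The sum of 6 proliferation markers was 2035 CPM for WT 1, 2014 for the library labelled WT 2, 1808 for HET 1 and 1977 for HET 2, lower in both HET libraries by a small margin, and its part in these values was not tested.

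The BCL2 family list had 8 of 17 below 0 (median 0.08), with 3 separated downwards and 3 upwards. Each is 17.6% of the list, against 15.9% downwards and 19.6% upwards in all genes tested. The near-identical Bcl2a1 copies were counted singly in this list. The median turned to -0.08 without WT 1 and to -0.19 without HET 1, and was 0.15 without HET 2. Its genes of smallest p were pore-forming effectors that MCL1 and its relatives restrain. Bak1 stood at 42.8 and 44.2 CPM in WT against 25.4 and 27.9 in HET (unadjusted p = 0.0468, adjusted p = 0.986 by edgeR). Bax stood at 18.5 and 18.9 in WT against 10.1 and 10.9 in HET. Both genes were picked by smallest p, which favours groups that lie apart and replicates that lie close together. Krüppel-like factors had 10 of 13 tested genes below 0 (median -0.27), 3 separated downwards and 1 upwards, with Klf1 and Klf14 under the filter. The median turned to 0.15 without the library labelled WT 2, and it was -0.52 without WT 1 and -0.68 without HET 1. Klf10, induced by TGF-beta, stood at 150.9 and 80.5 CPM in WT against 60.5 and 63.6 in HET, and Klf16 at 21.3 and 23.5 in WT and 13.1 in each HET library.

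**Figure D5:**
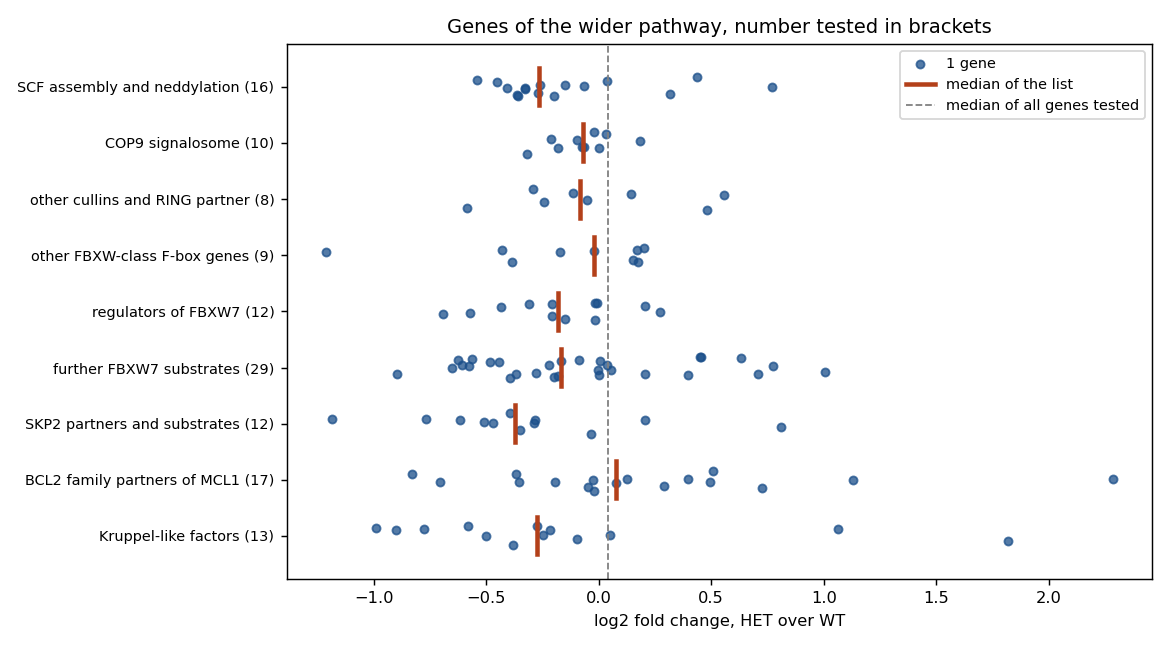
Log2 fold change of HET over WT for each tested gene of the 9 lists (blue points), with the median of each list (red bar) and the median of all genes tested (dashed line, 0.04). With all 4 libraries the SKP2 list has the lowest median, -0.37, while without WT 1 or without HET 1 that of the Krüppel-like factors is lower (-0.52 and -0.68, against -0.34 in each case). Every list spans 0.

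Over 4 libraries, 112 of 7730 protein-coding genes (mean log2 CPM 4 or above) lay within a root mean square difference of 0.1 log2 units of the centred Fbxw7 profile. The closest were Dlgap4 (0.011), Mindy1 (0.032), Carmil1 (0.036), Aph1a (0.036) and Golga5 (0.041). Dlgap4, for example, stood at 58.1, 46.3, 43.0 and 35.5 CPM in the same order of libraries. Among the members, Rbx1 (0.28) and Mcl1 (0.29) were nearest to Fbxw7 and Cul1 (0.41) was farthest, with Usp28 below the level limit. Rbx1 ranked only 2289 and Mcl1 2456 among the 7730 genes, so many other genes lay closer to Fbxw7.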

How the data were processed

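Per the submitters' processing notes, the authors made the deposited estimated counts per gene with Salmon and build GRCm38.p5. No source used here gives Salmon's version, its annotation or the strandedness. Totals were 13152252 (WT 1), 15307939 (labelled WT 2), 14582943 (HET 1) and 12695132 (HET 2) whole-number counts. Of 51826 gene identifiers, 51633 matched GENCODE M21, the source of symbols, coordinates and exon lengths. Genotypes were compared with edgeR 4.0.16 under R 4.3.3, using filterByExpr, TMM and the quasi-likelihood test on all genes, adjusted by Benjamini-Hochberg and called under 0.05. The SE is the log2 fold change divided by the square root of F. With 2 libraries a genotype, an exact permutation test cannot go below p = 0.333. DESeq2 1.42.0, limma-voom (limma 3.58.1), other scalings and filters, and leaving out each library were alternatives. Members and lists were chosen with earlier results of these data known. Named beside the members were Elf5, Ifngr1, the 2 genes of smallest p in each list, the 5 genes closest to Fbxw7, and overlapping or pseudogene models. Usp25, Klf4, Klf6, Bcl2a1b, Krt14 and Acta2 fall outside this rule and were named after their values were seen.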

Additional observations from a re-analysis of the deposited data

How the results depend on the processing

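No member passed under any of the 13 other settings tried. Fbxw7 ranged from -0.61 to -0.23, Rbx1 from -0.64 to -0.13, Usp28 from -0.88 to -0.54 and Klf5 from -0.91 to -0.11 (log2 fold change), without a change of sign. Relative to epithelial markers, chosen after seeing the data, Fbxw7 turned to 0.10 and Usp28 was -0.21. The other 4 members changed sign. Upper-quartile scaling gave 0.0090 for Skp1a. Total counts gave 0.11 for Skp1a and 0.070 for Skp2, and library sizes without other cell types 0.078 and 0.039, with the median of all genes at 0.22 and 0.19 against 0.04 (0.12 under upper-quartile scaling). The setting called library sizes without other cell types used no TMM. Its sizes were protein-coding counts, less mitochondrial genes and the listed leukocyte, endothelial, erythroid and fibroblast markers. Only those marker genes were left out, so the mix of cells was not corrected for. RLE scaling gave -0.043 for Cul1 and -0.045 for Mcl1, no filter beyond 1 count -0.089 and -0.099, DESeq2 -0.043 and -0.045, and limma-voom -0.014 for Mcl1. Both total counts and library sizes without other cell types raised the median of all 9 lists. With 1 library left out, Skp1a ranged from -0.49 to 0.24, Cul1 from -0.23 to 0.31, Skp2 from -0.56 to 0.16 and Mcl1 from -0.33 to 0.16.

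Over all genes, edgeR called 324 with no filter beyond 1 count and from 0 to 657 with 1 library left out (657 without WT 1, 9 without the library labelled WT 2), and DESeq2 134, against 0 with all libraries. Without WT 1, 1 gene of the lists passed, Bcl2a1b (BCL2 list count from 0 to 1). That fit leaves the library labelled WT 2 as the only WT library, where Bcl2a1b was at 0.641 CPM against 15.9 for WT 1. The leukocyte sum was also lowest there (23.4 CPM), and its part in Bcl2a1b was not tested. How reads were divided between the near-identical Bcl2a1 copies is uncertain. Of the 5 genes closest to Fbxw7, from 0 to 2 were kept with a library left out. Per kilobase of the longest transcript, levels were 14.0 for Fbxw7, 87.0 for Skp1a, 37.4 for Cul1, 11.4 for Rbx1, 3.27 for Skp2, 3.56 for Usp28 and 28.6 for Klf5. Skp1a then lay above Mcl1 (81.8), and Usp28 above Skp2. No paired analysis was possible because the labels give the genotypes no shared replicate numbers. The cause of these changes was not tested.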
